A study of Mus musculus with 9 samples.

Results

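Reln encodes reelin, a large secreted glycoprotein of the extracellular matrix, and 4 circular RNAs (circRNAs) from its locus were read in mouse liver. They were chosen by position, with earlier results of these data known. A circRNA probe was taken if its named span lay wholly within chromosome 5, 21390000 to 21851000 (Reln), or chromosome 10, 86300000 to 86472000 (Stab2). Positions are in mouse genome build mm9. Of the 14043 circRNA probes named by position, among 30534 circRNA probes in all, 4 lay in the Reln window and 0 of those analysed here lay in the Stab2 window. The values below are therefore those of the Reln circles. The nearest position-named circRNAs to the Stab2 window lay 20.2 kb below it and 1101.0 kb above it. The host gene is that of the window, since the files do not pair probes with genes, and circRNAs named by a number or code have no position in the files and were assigned to neither locus.

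The livers came from male C57BL/6J mice, an inbred strain, aged 20 weeks, and each of the 3 groups had 3 arrays. Metformin mice were kept for 17 weeks on high fat chow, with 45% of its energy from fat, and during the last 5 weeks were gavaged with metformin, a glucose-lowering drug, at 3 mg/kg/day. High fat diet mice had the same chow for the same time and were gavaged with saline vehicle in those 5 weeks, while control mice had normal chow for 17 weeks, with no gavage listed. Diet and gavage thus cannot be told apart in a comparison with control. Each array held liver from 4 mice pooled, so the spread between arrays is that between pools together with that of the array measurement. RNA was digested with RNase R, an exonuclease that removes linear RNA and spares circles.

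In the developing brain, reelin binds the receptors Vldlr and Lrp8 on neurons and leads to phosphorylation of the adaptor Dab1, which guides cell positioning. In the liver, Reln is a marker of hepatic stellate cells, the vitamin A storing cells beside the sinusoids, which make fibrous matrix when activated. Stab2 encodes stabilin-2, a scavenger receptor of the sinusoidal endothelium that clears hyaluronan from the blood. A circRNA forms when a downstream splice donor is joined back to an upstream acceptor, and its precursor is usually transcribed from the promoter of its host gene.

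All 4 circles lie in the window of 1 gene, taken as their host, and its promoter is shown as background. Their levels moved together from array to array, as described below, and any part of the promoter in this was not tested. The sequence is the 250 bases before the Reln start from RefSeq (GRCm38.p6, chr5:22344706-22344955, minus strand), 5′ to 3′, with each GGGCGG match in capitals. GGGCGG is the core of the GC box, the motif bound by Sp1-family factors.
Reln promoter: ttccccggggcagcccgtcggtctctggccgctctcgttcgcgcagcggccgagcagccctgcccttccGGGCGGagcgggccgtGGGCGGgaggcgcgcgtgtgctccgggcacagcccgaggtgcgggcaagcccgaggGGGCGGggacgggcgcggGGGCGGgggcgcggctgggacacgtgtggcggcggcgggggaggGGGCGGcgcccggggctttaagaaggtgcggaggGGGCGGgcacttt
This stretch held 37 CpG dinucleotides, more than 97.8% of 32841 mouse promoter stretches of the same length, whose median was 6. It held 6 GC box matches, searched as GGGCGG on both strands, and 32.7% of the promoters hold at least 1. It held 0 matches to TATAAA on either strand, a motif found in 12.4% of the promoters. The matches describe these letters and are not binding sites.

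Numbered along the chromosome, the circles covered different stretches of the locus. Circle 1 spanned chr5:21420801-21426379 (5578 bases), circle 2 chr5:21491615-21492952 (1337 bases), circle 3 chr5:21540381-21566218 (25837 bases) and circle 4 chr5:21566067-21586641 (20574 bases). RefSeq places Reln on the minus strand, so circle 4 lies nearest to the start of the gene and circle 1 nearest to its end. These are genomic spans and not the lengths of the circular RNAs. Circles 1 and 2 were 65.2 kb apart and circles 2 and 3 were 47.4 kb apart, while circles 3 and 4 overlapped by 151 bases. Circles 3 and 4 were longer than 94.3% and 85.9% of the positioned circRNAs, and circle 2 was longer than 12.4% of them. None of the 4 shared an exact start or end with another positioned circRNA, as 46.8% of positioned circRNAs do. The 4 spans thus name 4 separate pairs of back-splice ends at 1 locus.

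**Figure D1:**
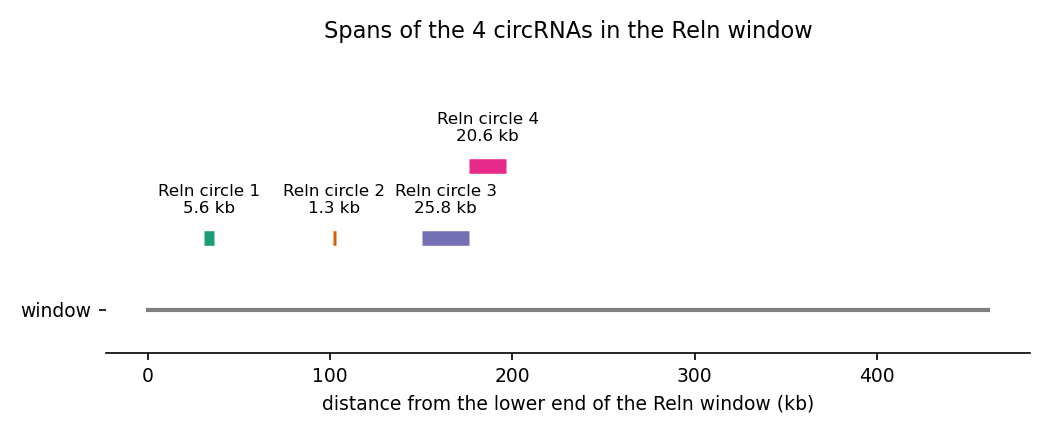
Map of the Reln circRNAs along the locus, with distance on the horizontal axis and each bar the genomic span of a circle. Circles 3 and 4 are the long ones and overlap by 151 bases, and circle 2 is the shortest at 1337 bases.

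Levels are given as log2 of the processed intensity above the 75th percentile of the array's probes, so that 0 is the brightness of that percentile. All 4 circRNA probes were well above background on 9 of 9 arrays, and so were their 4 partner probes. A partner bears the same name with the ending _neg. Its design target is not stated in the sources at hand, and it serves here as a second reading of each pair, which may hold signal from other RNA. One spot, that of circle 4 on metformin array 2, was marked as an outlier by the scanner software and left out, so circle 4 has 2 metformin arrays.

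Circle 3 was the brightest, with a mean level of 1.13 over the 9 arrays, above 83.4% of circRNA probes. It stood at 1.51, 1.49 and 0.84 on the metformin arrays, at 1.14, 0.77 and 1.36 on the high fat diet arrays and at 1.03, 1.26 and 0.78 on the control arrays. The 3 groups overlapped, and each held 1 low array. Circle 4, which overlaps circle 3, had a mean level of 0.94, above 81.2% of circRNA probes. Its levels were 1.16 and 0.77 with metformin, 1.13, 0.59 and 1.15 on the high fat diet and 0.93, 1.24 and 0.53 in controls. The groups overlapped here too, with high fat diet array 2 and control array 3 the lowest.

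Circle 1, the one nearest the low-coordinate end of the window, had a mean level of -0.31, above 64.4% of circRNA probes. It read 0.30, 0.32 and -1.0 on the metformin arrays, -0.02, -0.76 and -0.20 on the high fat diet arrays and -0.63, -0.05 and -0.75 on the control arrays. Its spread within groups (SD 0.535) was larger than that of 88.2% of circRNAs, and metformin array 3 was its lowest value. Circle 2, the shortest, was the dimmest at a mean level of -0.70, above 58.8% of circRNA probes. It read -0.22, -0.41 and -0.81 with metformin, -0.73, -0.94 and -0.63 on the high fat diet and -1.09, -0.44 and -1.0 in controls. Circles 2, 3 and 4 had within-group SDs of 0.285, 0.313 and 0.320, and the median circRNA had 0.221. Probes of different sequence bind with different strength, so the order of the 4 levels is one of brightness and not of abundance.

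**Figure D2:**
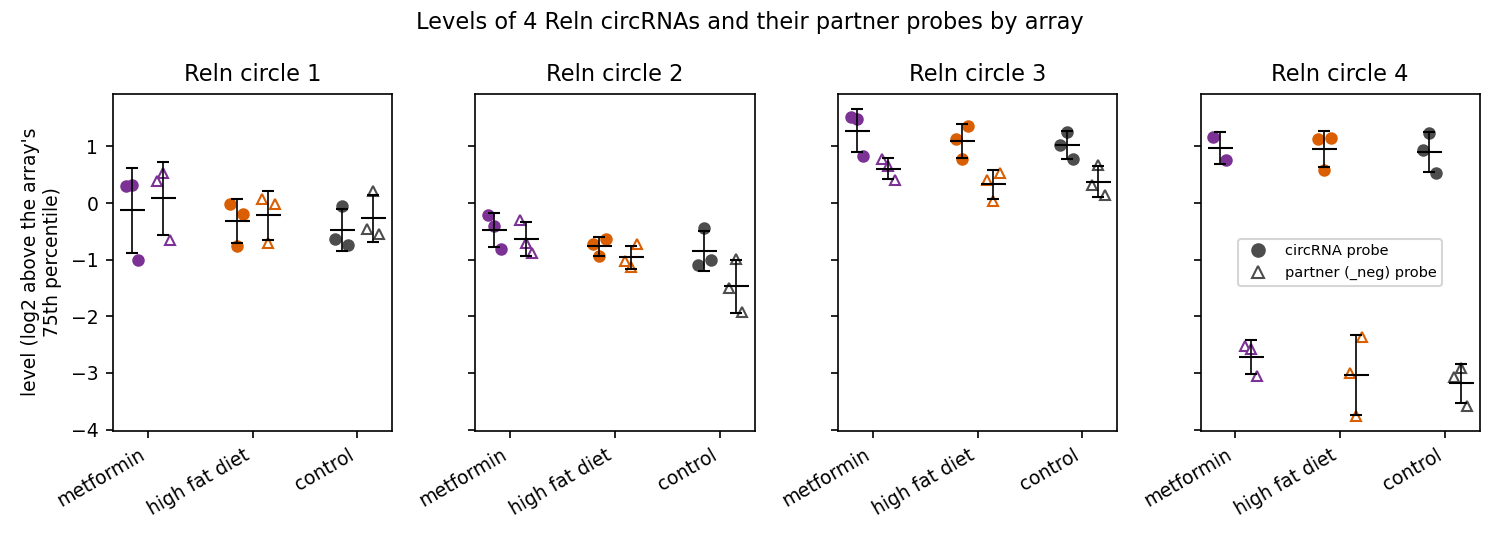
Levels of the 4 Reln circRNAs and their partner probes on each array (log2 above the array's 75th percentile), with metformin, high fat diet and control groups from left to right. The groups overlap for every circRNA probe, and those on metformin array 3, high fat diet array 2 and control array 3 lie below their group means. Filled circles are circRNA probes, open triangles partner probes, and bars the mean and SD.

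The circles differed in how far their probes stood above the partner. Circle 4 was 12.9 and 14.1 times as bright as its partner on metformin arrays 1 and 3, 17.4, 20.3 and 11.4 times on the high fat diet arrays and 15.9, 17.9 and 17.3 times on the control arrays. In processed intensity its partner read 128.8, 131.1 and 87.9 with metformin, 96.3, 78.1 and 171.7 on the high fat diet and 100.4, 99.5 and 60.6 in controls, so this ratio rests on a dim partner. Its mean ratio was 15.7-fold, higher than for 94.5% of circRNAs, and 8.53-fold after normexp background correction with an offset of 50, which raises dim signals such as its partner's. Circle 3 averaged 1.62 times its partner and circle 2 1.25 times, both brighter than the partner on 9 of 9 arrays. Circle 1 was dimmer than its partner on all 9 arrays, at a mean of 0.884-fold, and 15.7% of circRNAs had a lower ratio. The median circRNA had a log2 ratio of 0.743, and 22.0% had a ratio below 0. In the authors' deposited table, whose log2 values follow the rank of circRNA minus partner intensity (Spearman 1.00), circle 1 is at the floor of -3.32 on all 9 arrays. The deposited value of circle 1 therefore holds no difference between arrays, while the signal of its probe exceeded background on each.

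Across arrays the 4 circles were high or low together within each group. In bulk liver, fewer cells of a type and less RNA per cell cannot be told apart. All 4 lay below their group mean on metformin array 3, high fat diet array 2 and control array 3. All 4 lay above it on metformin array 1, high fat diet arrays 1 and 3 and control array 2, as did the 3 measured on metformin array 2. Control array 1 was divided, with 2 above and 2 below. The deviations ranged from -0.87 to 0.44 for circle 1, from -0.33 to 0.41 for circle 2, from -0.44 to 0.27 for circle 3 and from -0.37 to 0.34 for circle 4.

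**Figure D3:**
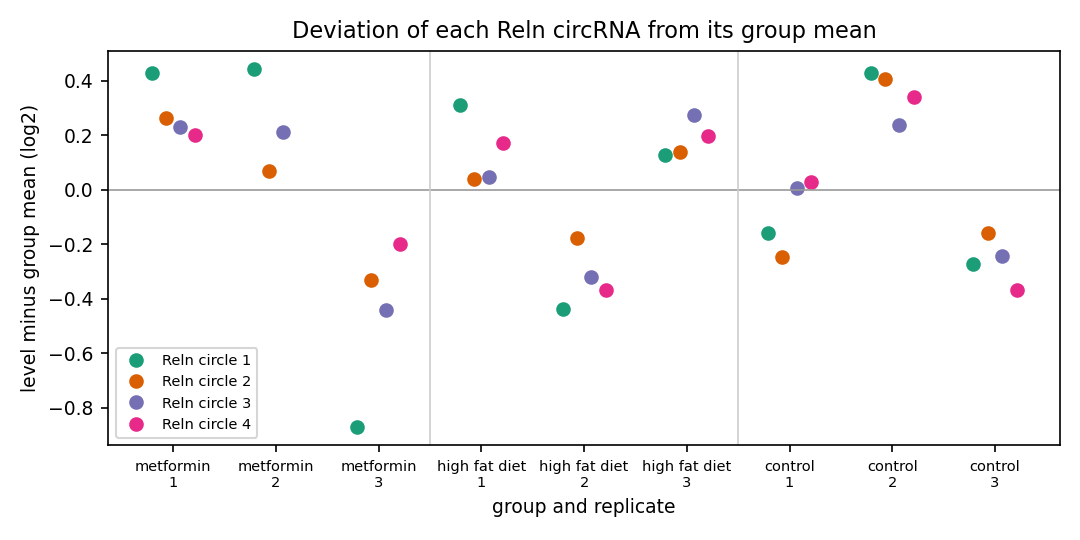
Deviation of each Reln circRNA from its group mean (log2) on each array. The points of an array lie on 1 side of 0 on every array but control array 1, and metformin array 3 holds the lowest, circle 1 at -0.87.

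Pearson correlations of levels across arrays were 0.930 for circles 1 and 3, 0.911 for circles 3 and 4, 0.863 for circles 2 and 3, 0.852 for circles 1 and 2, 0.846 for circles 1 and 4 and 0.746 for circles 2 and 4. They rest on 9 arrays, or 8 where circle 4 is involved, and are given as a description. The points share each array's RNA pool, hybridisation and scaling. Spearman correlations lay between 0.767 and 0.905. After the group means were taken out, the Pearson values lay between 0.804 and 0.927. A circle's median correlation with all circRNAs was 0.0839, 0.0290, 0.0361 and 0.00940 for circles 1 to 4, and each pair's value stood above at least 99.4% of the correlations with 21635 circRNAs measured on all arrays. Circles 1 and 3, with circle 2 lying between them, were thus as closely correlated as circles 3 and 4, which overlap.

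**Figure D4:**
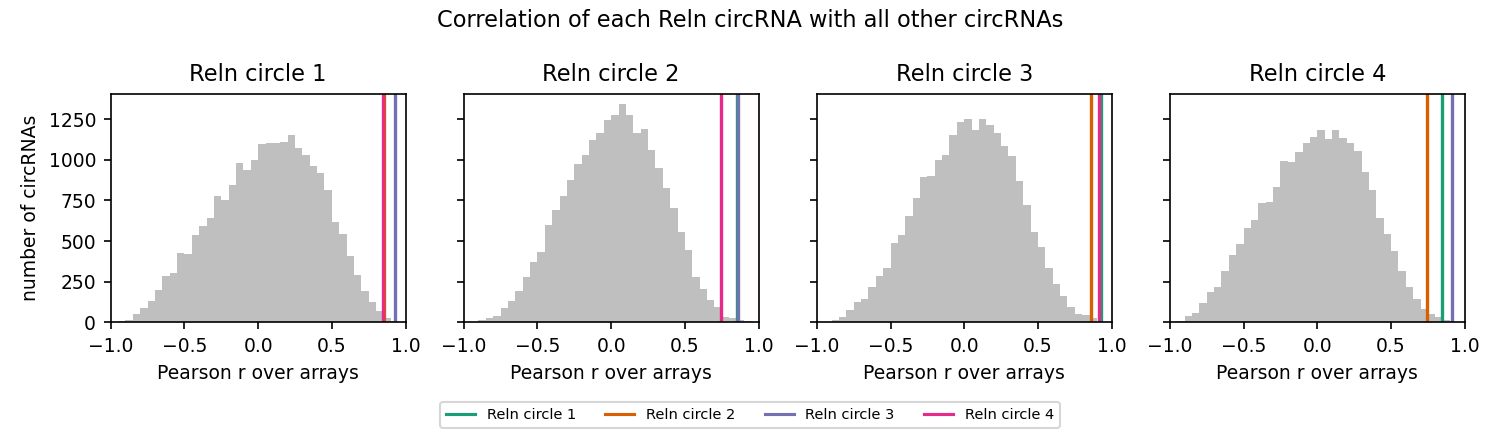
Correlation of each Reln circRNA with all other circRNAs across arrays (horizontal axis, Pearson r; vertical axis, number of circRNAs), with the other Reln circles marked by coloured lines. The bulk of circRNAs lies around 0, with medians between 0.00940 and 0.0839, and the marked pairs lie between 0.746 and 0.930.

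Without the 2 arrays farthest from the median level of either circle of a pair, taken for each circle in turn, the correlations of the 6 pairs lay between 0.654 and 0.935, the lowest for circles 2 and 4. Within groups and column numbers, metformin array 3 of slide 2 counting as column 1, they lay between 0.817 and 0.966. On the 8 arrays of slide 1 they lay between 0.747 and 0.931. With the outlier-marked spot of circle 4 kept they lay between 0.774 and 0.924. Arrays also differed in overall detection: probes well above background made up 83.9%, 83.4% and 69.4% of all probes with metformin, 82.4%, 71.8% and 77.0% on the high fat diet and 80.1%, 80.3% and 84.3% in controls. The correlation of that share with circles 1 to 4 was 0.666, 0.349, 0.518 and 0.349, and its part in the co-variation was not tested. Metformin array 3 and high fat diet array 2, both low in detection, were low for all 4 circles, while control array 3 had the highest share of all and was low for them too.

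The partners moved alike as well. Each circle correlated with its own partner at 0.982, 0.839, 0.909 and 0.851 for circles 1 to 4, and the partners correlated with each other at 0.648 to 0.886. The log2 ratios of circle to partner correlated less closely, at -0.203 to 0.636 over the 6 pairs. The shared movement was thus seen in both probes of a pair and was weaker, or not seen, in their ratio.

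The mean pairwise correlation of the Reln circles was 0.858, against a median of 0.292 over 842 loci with 3 or more circRNAs bright on all arrays. Those loci are of another kind, since each is a chain of circRNAs with overlapping spans, whereas in the Reln window circles 3 and 4 alone overlap. Of these loci, 97.98% had a lower value and 17 had a higher one. Within groups the value was 0.861 against a median of 0.303, and 20 loci were higher. Outside the window, the nearest bright circRNA, chr5:22022522-22035103, followed the mean of the Reln circles at r = 0.436 over 8 arrays. The dimmer chr5:22022522-22043414 followed it at 0.167, and chr5:21181273-21181919, on the other side, was well above background on 0 of 9 arrays. The 3 loci most like Reln in level across the 8 arrays on which all 4 circles were measured were chr5:30574009-30592069 (r = 0.826), chr1:33833114-33862264 (r = 0.786) and chr9:55685927-55706881 (r = 0.784), each with 3 circRNAs, and the median over all loci was 0.0162.

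In the comparisons between groups, limma was fitted to all circRNAs with Benjamini-Hochberg adjustment within each comparison, with 0.05 as the threshold for calling a circRNA. For metformin against high fat diet, 0% of 24293 circRNAs were called, 3.75% had an unadjusted p under 0.05 and 8.76% had groups that did not overlap. For high fat diet against control the shares were 0% of 25755, 7.25% and 13.1%, and for metformin against control 0% of 25733, 5.07% and 12.6%. Of the 4 Reln circles, 0 were called, 0 had an unadjusted p under 0.05 and 0 had groups that did not overlap, in each of the 3 comparisons. The unadjusted count depends on metformin array 3, the 1 array on slide 2. Without it, 3 of the 4 circles had such a p for metformin against control, where 3.89% of circRNAs did, and 1 of the 4 for metformin against high fat diet, where 3.82% did. With array weights, 3 of the 4 had such a p for metformin against control, where 7.55% did, and no circle passed the adjusted threshold in any of these fits.

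High fat diet was set against control to ask what the diet, with gavage, does. Circle 1 averaged -0.33 ± 0.388 on the high fat diet and -0.48 ± 0.375 in controls (SD, n = 3 each), a log2 difference of 0.15 with a 95% interval from -0.58 to 0.88 (limma, adjusted p = 0.948). Circle 2 averaged -0.77 ± 0.161 on the high fat diet and -0.84 ± 0.355 in controls (SD, n = 3 each), a difference of 0.08 with an interval from -0.36 to 0.52 (limma, adjusted p = 0.955). For circles 3 and 4 the differences were 0.07, from -0.40 to 0.54, and 0.05, from -0.42 to 0.53 (limma, adjusted p = 0.963 and 0.970). All 4 differences were above 0, as were 38% of those tested, but the sign for circles 1 to 3 depends on how the slide layout is handled. With the column number as a covariate the differences were -0.13, -0.07, -0.13 and 0.04 for circles 1 to 4. That covariate counts metformin array 3, on slide 2, as column 1, and so mixes slide with column. Within column 1 of slide 1, with 1 high fat diet array against 3 controls, the differences were 0.46, 0.12, 0.11 and 0.22. Leaving out each array in turn gave ranges of -0.0048 to 0.37, -0.05 to 0.28, -0.07 to 0.23 and -0.13 to 0.24, the upper ends without high fat diet array 2 or control array 2.

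Metformin was set against high fat diet to ask what the drug does on that diet. Circle 2 averaged -0.48 ± 0.302 with metformin and -0.77 ± 0.161 on the high fat diet (SD, n = 3 each), a difference of 0.29 with an interval from -0.16 to 0.73 (limma, adjusted p = 0.977). Circle 1 differed by 0.20 and circle 3 by 0.19, with intervals from -0.53 to 0.93 and from -0.28 to 0.66 (limma, adjusted p = 0.977 for both). Circle 4 averaged 0.97 ± 0.282 with metformin (SD, n = 2) and 0.96 ± 0.317 on the high fat diet (SD, n = 3), with an interval of the difference from -0.52 to 0.54 (limma, adjusted p = 0.997). All 4 differences were above 0, as were 56.2% of those tested, but for circles 1 and 4 the sign rests on single arrays. Circle 1 was at -0.02 without high fat diet array 2, metformin array 1 or metformin array 2, and at 0.63 without metformin array 3. Circle 4 was at -0.17 without high fat diet array 2, at -0.19 without metformin array 1 and at 0.21 without metformin array 3. With outlier-marked spots kept it was at 0.16. Circles 2 and 3 stayed above 0, at 0.15 to 0.45 and 0.03 to 0.41 over the arrays left out, both highest without metformin array 3. Within column 2 of slide 1, which leaves out metformin array 3 and high fat diet array 1, the differences were 0.79, 0.47, 0.43 and 0.29 for circles 1 to 4. There 0 were called and 2 had an unadjusted p under 0.05, against 6.15% of circRNAs.

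For each circle, the difference of metformin against control is the sum of the other 2. It was the widest because both of those were above 0. Circle 2 averaged -0.48 ± 0.302 with metformin and -0.84 ± 0.355 in controls (SD, n = 3 each), a difference of 0.36 ± 0.202 (SE) with an interval from -0.08 to 0.81 (limma, adjusted p = 0.995). Circle 1 differed by 0.35, from -0.38 to 1.08, circle 3 by 0.26, from -0.21 to 0.73, and circle 4 by 0.06, from -0.47 to 0.60. With outlier-marked spots kept, which restores metformin array 2 for circle 4, the difference of circle 4 was 0.25. Without metformin array 3 the differences were 0.78, 0.53, 0.48 and 0.26 for circles 1 to 4 (limma, unadjusted p = 0.0111, 0.0282, 0.0380 and 0.415, adjusted p = 1.00 for each), and without metformin array 1 they were 0.13, 0.23, 0.14 and -0.14. Without control array 2 they were 0.56, 0.57, 0.38 and 0.23, and without control array 3 0.21, 0.28, 0.14 and -0.12. Without metformin array 2 circle 1 was at 0.13 and circle 3 at 0.15. With the column number as a covariate the differences were 0.07, 0.22, 0.06 and 0.05. That fit counts metformin array 3, on slide 2, in the same column as the controls on slide 1. Both the size and, for circle 4, the sign thus rest on single arrays. In the fit over all arrays, all 4 were above 0, as were 43.3% of those tested, and the 4 circles share arrays and co-vary, so they are not 4 separate readings of a direction. In the authors' deposited values, which follow circRNA minus partner intensity, circle 2 went the other way. It differed there by -1.54 for metformin against control and -1.47 for high fat diet against control (limma, unadjusted p = 0.0441 and 0.0524). Neither passed the adjusted threshold. For metformin against high fat diet it differed by -0.08. Circles 3 and 4 stayed above 0 against control, at 0.30 and 0.27 with metformin and 0.29 and 0.11 on the high fat diet.

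Circle 2 was the circle whose partner and ratio had the smallest unadjusted p values against control. Its partner read -0.30, -0.71 and -0.89 with metformin, -1.02, -1.12 and -0.73 on the high fat diet and -1.50, -0.98 and -1.92 in controls. Metformin and control arrays did not overlap, and the difference was 0.84 ± 0.235 (SE), with an interval from 0.32 to 1.35, which did not pass the threshold (limma, unadjusted p = 0.00404, adjusted p = 0.593). Among the partners, 6.15% had an unadjusted p under 0.05 in this comparison and 14% had groups that did not overlap, and 0% were called. Of the 4 Reln partners, 1 had such a p and such groups, that of circle 2. In the other comparisons 0 of the 4 did, where the shares of all partners were 4.25% and 9.97% for metformin against high fat diet and 7.1% and 13.3% for high fat diet against control, with 0% called in both. The partners of circles 1, 3 and 4 had overlapping groups in every comparison, and for metformin against control they differed by 0.35, 0.23 and 0.47 (limma, adjusted p = 0.943, 0.934 and 0.899). Leaving out single arrays gave 0.13 to 0.72 for circle 1, 0.12 to 0.38 for circle 3 and 0.27 to 0.64 for circle 4. For the partner of circle 2 it gave 0.61 to 1.08, and the column number as a covariate gave 0.68. No metformin array shared both slide and column with a control. The differences of the partner of circle 2 were 0.33 for metformin against high fat diet (limma, adjusted p = 0.948) and 0.51 for high fat diet against control (limma, adjusted p = 0.706).

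The log2 ratio of circle 2 to its partner was 0.08, 0.30 and 0.07 with metformin, 0.29, 0.18 and 0.10 on the high fat diet and 0.41, 0.55 and 0.91 in controls. Every array of both high fat groups was thus below every control array. Metformin against control differed by -0.47 ± 0.148 (SE), from -0.82 to -0.13 (limma, unadjusted p = 0.0129, adjusted p = 0.843), -0.33 without control array 3 and -0.25 with normexp. High fat diet against control differed by -0.43 ± 0.148 (SE), from -0.78 to -0.09 (limma, unadjusted p = 0.0196, adjusted p = 0.976), -0.29 without control array 3 and -0.29 with normexp. Both comparisons share the control arrays. These were all in column 1 of slide 1, which held no metformin array, so group and layout are partly bound together. With the column number as a covariate the differences were -0.46 with metformin and -0.42 on the high fat diet. Within column 1 of slide 1, with 1 high fat diet array against 3 controls, the high fat diet difference was -0.33. Over all pairs of probes, 0.0033% were called for metformin against control, 5.54% had an unadjusted p under 0.05 and 13.2% had groups that did not overlap. The shares for high fat diet against control were 0.00329%, 4.89% and 12.6%, and for metformin against high fat diet 0%, 4.04% and 9.39%. Neither ratio of circle 2 was among the called pairs.

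None of the other ratios passed the threshold. The ratio of circle 3 was higher on all high fat diet arrays than on all control arrays, by 0.12 (limma, adjusted p = 0.976) and by -0.02 with the column as a covariate. That of circle 4 was lower on both metformin arrays than on all control arrays, by -0.33 with n = 2 with metformin (limma, adjusted p = 0.932), and by -0.19 and -0.12 with normexp (75th percentile and quantile scaling). The ratio of circle 1 had overlapping groups in all 3 comparisons. Averaged over the circles, the locus level stood at 0.319 ± 0.523 with metformin (SD, n = 2), 0.239 ± 0.282 in high fat diet mice and 0.151 ± 0.318 in controls (SD, n = 3 each), on the log2 scale. These means lie closer together than the arrays of a group. The order turned round when the log2 ratios were averaged, at 1.05 ± 0.0778 with metformin (SD, n = 2), 1.21 ± 0.128 in high fat diet mice and 1.29 ± 0.0686 in controls (SD, n = 3 each). Between metformin and control, the ratios of circles 2 and 4 differed by -0.47 and -0.33, and those of circles 1 and 3 by -0.0026 and 0.026.

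**Figure D5:**
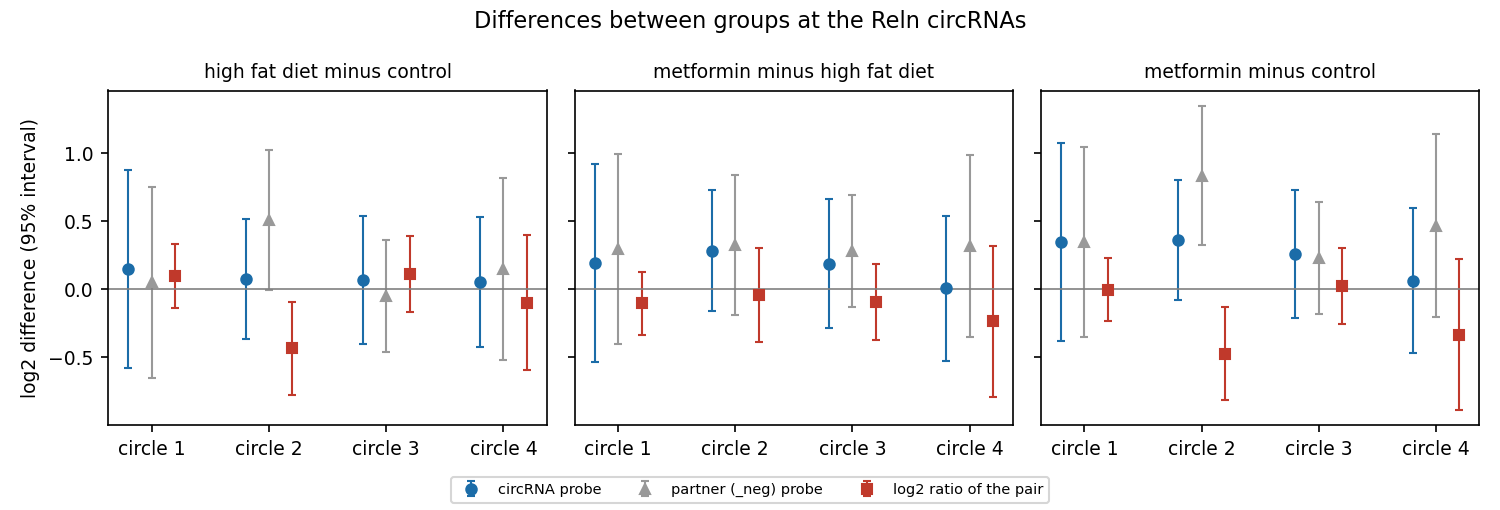
Differences between groups for each Reln circle (log2, vertical axis, with 95% intervals), in a panel for each comparison, for the circRNA probe, its partner and their ratio. The intervals of all circRNA probes span 0, while those of the ratio of circle 2 against control lie below 0 at -0.47 with metformin and -0.43 on the high fat diet. That of the partner of circle 2 lies above 0 at 0.84 for metformin against control. The intervals are unadjusted, and none of these differences passed the adjusted threshold.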

How the data were processed

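Liver RNA was read on 9 one-colour (Cy3) arrays of 62617 spots, 1439 of them controls. Agilent Feature Extraction 11.5.1.1 read the spots on an mm9 grid, per the file headers, while version 10.7 stands in the submitters' processing notes. Processed intensity as deposited is background-subtracted and detrended within each array and is not scaled between arrays, and the deposited median intensities of spot and background are raw, per the file headers. Other deposited columns are 0 or 1 flags. The authors also deposited log2 values per circRNA, with a median of 6.51 on every array and a floor of -3.32; above the floor they keep the rank of circRNA minus partner intensity, and their scaling is not stated in the sources at hand.

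Outlier-marked spots were left out, spots of a probe averaged, and each array's 75th percentile subtracted on the log2 scale. A circRNA or partner entered a test where all 3 arrays of either group compared were well above background; ratios were tested without that filter. All 3 groups shared a fit for each of circRNAs, partners and ratios (limma 3.58.1, R 4.3.3, lmFit and eBayes without trend, 6 residual degrees of freedom, and 5.72, 5.80 and 1.80 prior ones), with Benjamini-Hochberg adjustment within each comparison; the script was tested on simulated data. No circRNA probe of the locus was saturated. The number of arrays limits the precision. Slide 1 held the controls and high fat diet array 1 in column 1 and the other high fat diet and metformin arrays in column 2, except metformin array 3, which was alone on slide 2. The column covariate used the column number on either slide, so metformin array 3 counted as column 1.

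All members were named, by a rule for windows of 6 or fewer members, and like loci by the highest correlation. Members and lists were chosen with earlier results of these data known. Lists of stellate, sinusoidal, macrophage, hepatocyte and reelin pathway genes were not tested, since nothing at hand pairs the probes with genes on mm9; the tissue was therefore not checked against markers. Alternatives covered scaling, background correction, filters, the variance model, array weights, slide layout, replicate numbers, the authors' log2 values and leaving out each array; keeping outlier-marked spots and taking the percentile over all spots were added after the data were seen.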

Additional observations from a re-analysis of the deposited data

How the results depend on the processing

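No Reln probe or ratio passed the threshold under any alternative: 768 values were computed with limma and the smallest adjusted p was 0.316, for the partner of circle 2, metformin against control, with array weights. The counts called over the whole array were small and moved with the settings. For circRNAs, main counts of 0 became, for high fat diet against control, 19 with normexp and the 75th percentile, 8 with normexp and quantile normalization, 7 with trend and robust, 15 with the authors' values, 4 within column 1, and 1 each with probes above background on all 9 arrays, the column as covariate, outlier-marked spots kept, the percentile over all spots, or the ratio; for metformin against high fat diet, 13 with the authors' values, 1 with the column as covariate and 0 to 1 leaving out each array; for metformin against control, 6 and 3 with normexp (75th percentile, quantile), 3 with trend and robust, 23 with the authors' values, and 1 with array weights or the ratio. For partners, counts of 0 became, for high fat diet against control, 20 and 4 with normexp, 5 with all 9 arrays above background, 12 with trend and robust, 1 with the column as covariate or within column 1, and 0 to 1 leaving out each array; for metformin against high fat diet, 1 with either normexp setting or all 9 arrays, 3 with trend and robust, and 0 to 1 leaving out each array. For ratios, the count of 1 for high fat diet against control became 0 with normexp, all 9 arrays, the column, the slide block or column 1 alone, and 0 to 2 leaving out each array; that of 1 for metformin against control became 0 with normexp, all 9 arrays, the column, the slide block, and 0 leaving out any array; that of 0 for metformin against high fat diet became 1 with normexp or all 9 arrays. The cause was not tested. The locus mean was 1.05 with metformin, 1.21 on the high fat diet and 1.29 in controls when the ratio was averaged in place of the level.

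The replicate numbers did not pair the arrays: deviations of arrays with the same number correlated at -0.188 to 0.251, and 2 of 9 pairs passed 0.1. With the replicate number as a block, 4 circRNAs were called for high fat diet against control, 1 partner for metformin against high fat diet, 2 partners for metformin against control, and 0 ratios in the comparisons with control.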
